A study of Mus musculus with 6 samples.

Results

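The catalytic subunits of the proteasome and its PA28 activator were described in thymus RNA of Rag2/pfp KO mice and of wild-type mice. The members were chosen by name as the constitutive catalytic subunits Psmb6, Psmb7 and Psmb5, the immunosubunits Psmb9, Psmb10 and Psmb8, the thymoproteasome subunit Psmb11, and the PA28 subunits Psme1 and Psme2. Every probe annotated to 1 of these symbols was taken, which gave 12 of the 25697 probes of the array and 8 of the 9 genes. Psmb11 had no probe by symbol, gene ID or accession in the annotation used here and was not analysed here, so the results cover the constitutive proteasome, the immunoproteasome and PA28 but not the thymoproteasome. Rag2 encodes part of the recombinase that assembles antigen receptor genes, and pfp stands for perforin, the pore-forming killing protein of cytotoxic cells, whose gene is now called Prf1. The groups were 3 thymus samples labelled Rag2/pfp KO and 3 labelled wild type, each on 1 single-colour Illumina Mouse Ref-8 v2 array. Both groups were whole thymus with no treatment in the labels, and the sources used here do not give strain, age, sex or whether animals were pooled. The labels also do not say whether replicates came from separate animals, so the p-values cover only the spread among these 6 samples, part of which may be technical.

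None of the 8 measured genes passed the test as a gene, beside 6.09% of all tested genes called higher and 5.57% called lower. In 3 of the 8, every knockout value lay above every wild-type value, beside 16.9% of all tested genes. These were the immunosubunits Psmb10 and Psmb9 and the PA28 subunit Psme2, with fold changes of 2.20, 1.61 and 1.67 in the knockout over wild type. The test called 1 of the 12 probes, the second probe of Psmb10, with a fold change of 2.15 (95% interval 1.55 to 2.98), beside 5.48% of all tested probes called higher. The constitutive subunits Psmb6, Psmb7 and Psmb5, the immunosubunit Psmb8 and the PA28 subunit Psme1 had fold changes between 0.957 and 1.08 at their brightest probe, and their groups overlapped.

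The proteasome core is a barrel of stacked rings in which a few beta subunits carry the active sites that cut proteins into peptides. Immune cells and cells exposed to interferon-gamma replace the constitutive catalytic subunits with immunosubunits, which changes the peptides offered on MHC class I, and PA28 caps open the barrel. In mouse, cortical thymic epithelial cells use Psmb11 in place of Psmb5 or Psmb8, and the resulting thymoproteasome is known for its part in the positive selection of CD8 T cells.

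Each array had between 13729 and 13878 probes with a detection p-value under 0.05. Precision is limited throughout by having 3 arrays a genotype. Levels are given as normalized log2 intensity, and a gene was called where limma's moderated test gave a Benjamini-Hochberg adjusted p under 0.05 over 14097 tested probes. The Rag2 probe read 6.98, 6.73 and 7.88 in knockout samples and 9.17, 8.17 and 8.78 in wild type (limma adjusted p = 0.0579). A Prf1 probe read 9.62, 9.59 and 9.61 in knockout samples and 10.46, 9.90 and 10.38 in wild type (adjusted p = 0.0866), and the other had a difference of 0.06. The sources used here do not place the Rag2 and Prf1 probes relative to the deletions, so these probes do not check the genotype labels. Transcripts of heart and fat differed widely between arrays of the same genotype. The median level of 6 heart genes was 10.80, 12.80 and 4.70 in knockout 1, 2 and 3, and 4.90, 12.77 and 7.70 in wild type 1, 2 and 3. For fat genes it was 13.09, 14.18 and 6.54 in the knockout and 8.92, 13.94 and 11.57 in wild type. All 12 member probes were above background on all 6 arrays, so no member was lost to the filter on dim probes.

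The constitutive subunits did not separate the genotypes. Psmb6 (probe ILMN_2895862), the beta1 subunit with caspase-like activity, read 12.15, 12.02 and 12.15 in knockout thymus and 12.14, 12.10 and 12.16 in wild type. Its difference was -0.02 (SE 0.14, 95% interval -0.35 to 0.30), and the knockout range contained the lowest of the 6 values. Psmb7, the beta2 subunit with trypsin-like activity, had 3 probes. The brightest probe (ILMN_1221340) read 11.50, 11.50 and 11.61 in knockout thymus and 11.58, 11.72 and 11.50 in wild type, with a difference of -0.06 (SE 0.14, 95% interval -0.41 to 0.28). The other probes gave differences of -0.08 and -0.16, so all 3 pointed the same way with overlapping groups. Psmb5 (ILMN_2613469), the beta5 subunit with chymotrypsin-like activity, read 10.25, 10.31 and 10.26 in knockout thymus and 9.97, 10.09 and 10.41 in wild type. The wild-type values of Psmb5 lay on both sides of the knockout values, with an SD of 0.03 in the knockout and 0.23 in wild type. Its difference was 0.11 (SE 0.17, 95% interval -0.29 to 0.52). The limma adjusted p was 0.927 for Psmb6, 0.811 for Psmb7 and 0.705 for Psmb5. The intervals left room for fold changes down to 0.784 and up to 1.23 for Psmb6, and up to 1.44 for Psmb5.

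The promoter windows of Psmb10 and Psmb9, which separated the genotypes, are shown beside those of Psmb8 and Psme1, which did not. Each holds the 250 bases before the annotated start and the 50 bases from the start on, on the gene's own strand, from RefSeq on GRCm38.p6. Of the 9 genes, 8 had such a window. The windows were searched on both strands for an interferon-stimulated response element (the letters GAAA, NN and GAAA in a row, with N for any base), a gamma-activated sequence (TTCNNNGAA, which reads alike on both strands) and an antioxidant response element (TGACNNNGC). These letters were found in 3.44%, 8.30% and 12.4% of 32851 such windows. Psmb10 lies at chr8:105938343-105938642 on the minus strand and held none of the 3 motifs. Psmb9 lies at chr17:34187281-34187580 on the minus strand and also held none, and its capitals mark the 225 bases between the annotated starts of Psmb9 and of Tap1, which is transcribed the other way. Psmb8 lies at chr17:34197945-34198244 on the plus strand, and its capitals mark the gamma-activated sequence, whose first base is at -97 from the start. Psme1 lies at chr14:55578244-55578543 on the plus strand, and its capitals mark the interferon-stimulated response element, which lies on the reverse strand 9 bases after the start.
Psmb10: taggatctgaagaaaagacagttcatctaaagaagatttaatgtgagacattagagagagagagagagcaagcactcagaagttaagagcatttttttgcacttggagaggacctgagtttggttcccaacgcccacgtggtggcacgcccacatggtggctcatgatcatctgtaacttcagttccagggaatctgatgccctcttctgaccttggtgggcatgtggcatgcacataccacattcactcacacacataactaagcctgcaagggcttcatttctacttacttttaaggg
Psmb9: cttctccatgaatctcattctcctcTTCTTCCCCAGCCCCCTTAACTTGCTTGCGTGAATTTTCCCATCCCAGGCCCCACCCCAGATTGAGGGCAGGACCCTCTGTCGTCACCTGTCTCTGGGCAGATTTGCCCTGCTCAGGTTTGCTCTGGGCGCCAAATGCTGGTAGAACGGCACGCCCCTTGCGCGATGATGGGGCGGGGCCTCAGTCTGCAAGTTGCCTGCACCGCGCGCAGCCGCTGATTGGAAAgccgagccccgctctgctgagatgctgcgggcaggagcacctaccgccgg
Psmb8: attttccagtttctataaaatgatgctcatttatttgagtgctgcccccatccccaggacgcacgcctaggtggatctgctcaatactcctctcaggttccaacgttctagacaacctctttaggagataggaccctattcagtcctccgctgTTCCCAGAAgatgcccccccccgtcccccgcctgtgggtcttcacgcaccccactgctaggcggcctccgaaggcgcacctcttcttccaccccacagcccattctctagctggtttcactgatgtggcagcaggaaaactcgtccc
Psme1: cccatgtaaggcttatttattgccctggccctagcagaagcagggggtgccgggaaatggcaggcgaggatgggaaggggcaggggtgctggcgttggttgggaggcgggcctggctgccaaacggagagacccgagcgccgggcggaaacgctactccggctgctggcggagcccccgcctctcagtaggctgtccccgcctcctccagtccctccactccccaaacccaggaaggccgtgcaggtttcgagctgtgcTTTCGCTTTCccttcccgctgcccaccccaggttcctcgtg
Psme2 had a pair of windows, and neither held any of the 3 motifs. Among the constitutive subunits, Psmb6 and Psmb5 each held the antioxidant letters, starting at -9 and -47 from the start. A match or its absence describes the letters of the window only.

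Of the members, Psmb10 differed most between the genotypes. It encodes the beta2i immunosubunit, also called MECL-1, which takes the place of Psmb7. Its brighter probe (ILMN_2757870) read 13.89, 13.40 and 13.96 in knockout thymus and 12.82, 12.12 and 12.91 in wild type. The lowest knockout value, in knockout 2, was above the highest wild-type value, in wild type 3, and the second array of each genotype was its lowest. The difference was 1.14 (SE 0.27, 95% interval 0.47 to 1.80), a fold change of 2.20 (1.39 to 3.48). The limma adjusted p was 0.05004, just above the threshold of 0.05, so the gene was not called. The second probe (ILMN_2914843) read 13.79, 13.42 and 13.81 in knockout thymus and 12.67, 12.31 and 12.73 in wild type. This probe varied less within genotypes, with an SD of 0.22 in the knockout and 0.23 in wild type, against 0.30 and 0.43 for the brighter probe. Its difference was 1.10 (SE 0.20) with a limma adjusted p of 0.0227, and it was called. Before any normalization, the deposited signals of that probe were 15126, 10198 and 13593 in the knockout and 6862, 5325 and 7276 in wild type, and the genotypes did not overlap there either. The brighter probe was called when knockout 2 was left out (adjusted p = 0.0480), and the second probe lost its call when knockout 1, knockout 3 or wild type 1 or 3 was left out (adjusted p up to 0.104).

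Psmb9 (ILMN_1242466) encodes the beta1i immunosubunit, also called LMP2, which takes the place of Psmb6. It read 13.39, 12.99 and 13.66 in knockout thymus and 12.78, 12.33 and 12.87 in wild type. Every knockout value was above every wild-type value, and knockout 2 and wild type 3 came closest. The difference was 0.69 (SE 0.24, 95% interval 0.10 to 1.27), with an unadjusted p of 0.0278 and a limma adjusted p of 0.127. On the deposited signals the groups overlapped, at 11309, 7408 and 12240 in the knockout and 7405, 5405 and 7982 in wild type, where wild type 3 lay above knockout 2. As with Psmb10, replicate 2 of each genotype held the lowest value.

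Psmb8 (ILMN_2693940) encodes the beta5i immunosubunit, also called LMP7, which takes the place of Psmb5. It read 9.88, 9.77 and 9.95 in knockout thymus and 10.01, 9.60 and 9.76 in wild type. Wild type 1 was the highest of the 6 arrays and wild type 2 the lowest, so the knockout values lay within the wild-type range. The difference was 0.08 (SE 0.17, 95% interval -0.33 to 0.48), with a limma adjusted p of 0.807. The interval of the fold change ran between 0.796 and 1.39.

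Across the 8 member genes, 0 were called higher, beside 6.09% of all 9849 tested genes. Lower calls also numbered 0, beside 5.57% of all tested genes. At an unadjusted p under 0.05 there were 3 members, Psmb10, Psmb9 and Psme2, beside 28.6% of all genes. The same 3 had no overlap between genotypes with the knockout higher, beside 16.9% of all genes, and 0 members had no overlap with the knockout lower, beside 17.3%. A difference at least as large as that of Psmb10 was found in 5.89% of the tested genes. The median difference over the members was 0.09, beside 0.01 over all genes.

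**Figure D1:**
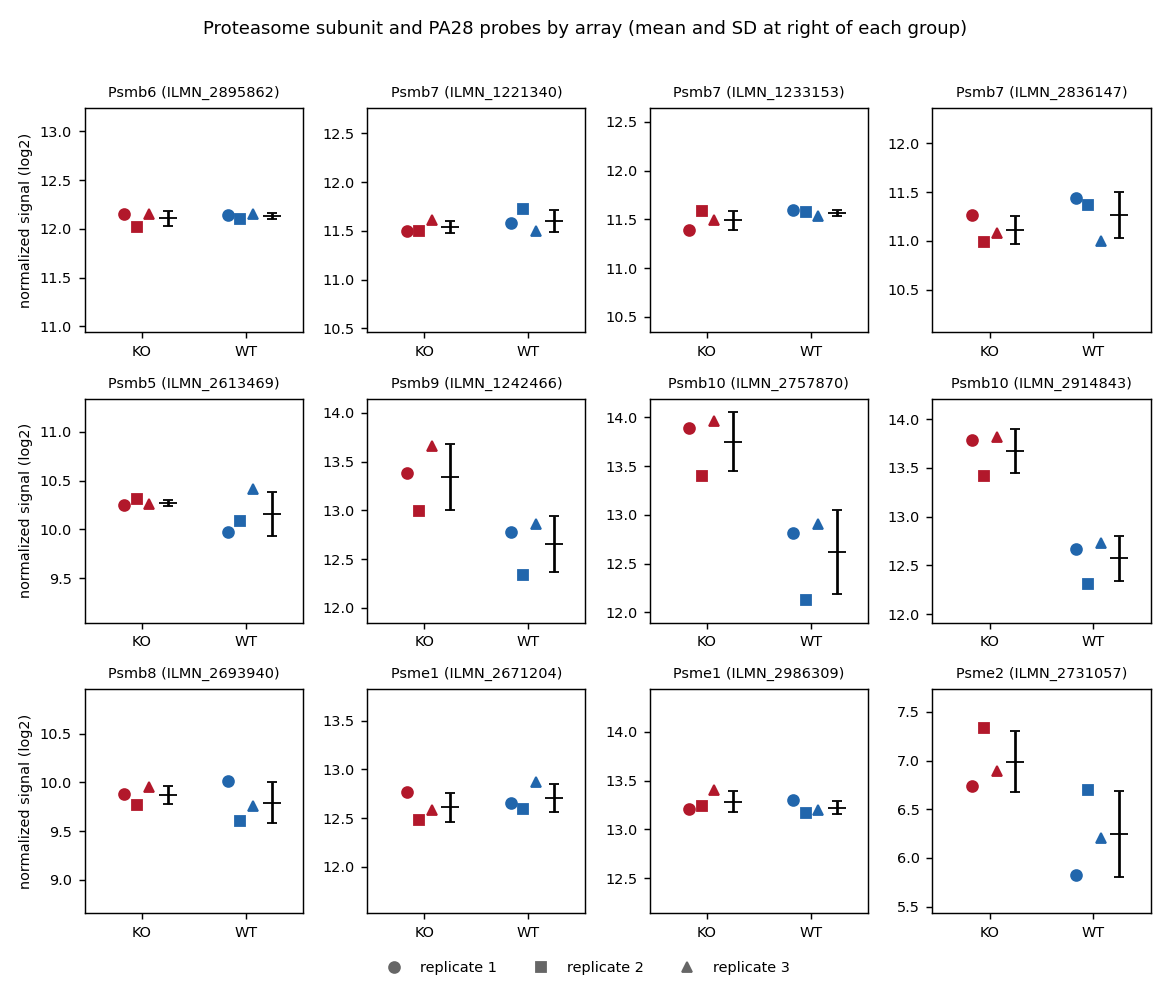
Normalized log2 intensity of the member probes on each array, with knockout arrays left of wild-type arrays, points for single arrays and the group mean ± SD (n = 3) at the right of each group. Psmb10, Psmb9 and Psme2 separate the genotypes, while the points of Psmb6, Psmb7, Psmb5, Psmb8 and Psme1 overlap.

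**Figure D2:**
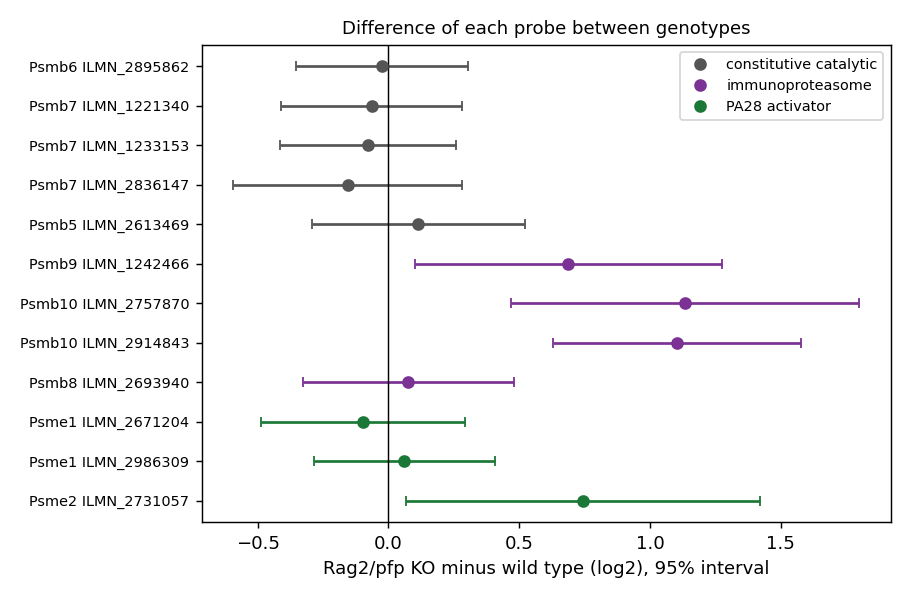
Difference between knockout and wild type on the log2 scale for each of the 12 member probes, with 95% intervals from limma. The second Psmb10 probe, at 1.10, is the only one past the adjusted threshold, and the intervals of the brighter Psmb10 probe, Psmb9 and Psme2 also lie above 0.

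Each immunosubunit was set against the constitutive subunit whose place it takes, as the log2 ratio on each array relative to the wild-type mean. Such ratios show unequal change between 2 probes and set no level of 1 against the other. Psmb9 over Psmb6 was 0.71, 0.44 and 0.99 in the knockout and 0.11, -0.29 and 0.18 in wild type. The arrays did not overlap, and the knockout ratio was 1.64-fold higher with an exact two-sided permutation p of 0.1, the smallest that 3 against 3 arrays allow. Psmb10 over Psmb7 was 1.37, 0.88 and 1.34 in the knockout and 0.22, -0.61 and 0.39 in wild type. It was 2.29-fold higher in the knockout with no overlap, again at an exact permutation p of 0.1. Psmb8 over Psmb5 was 0.00, -0.17 and 0.05 in the knockout and 0.41, -0.12 and -0.29 in wild type. Here the knockout values lay inside the wild-type range, and the exact permutation p was 0.9. For PA28, Psme1 over Psme2 was -0.51, -1.07 and -0.47 in the knockout and 0.49, -0.50 and 0.01 in wild type, overlapping at wild type 2, with an exact permutation p of 0.2. Adjusted over these 4 contrasts, the exact p-values were 0.2, 0.2, 0.9 and 0.267, and no contrast could have passed in a design of this size. Both contrasts planned with Psmb11 could not be computed.

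The immunosubunits were also set against each other, in contrasts chosen after the data were examined. Psmb10 over Psmb8 was 1.18, 0.81 and 1.19 in the knockout and -0.02, -0.30 and 0.32 in wild type. Psmb9 over Psmb8 was 0.64, 0.35 and 0.85 in the knockout and -0.10, -0.14 and 0.24 in wild type. Neither overlapped, and the ratios were 2.08-fold and 1.53-fold higher in the knockout, each with an exact permutation p of 0.1. That is the smallest p possible here, and it stayed at 0.1 after adjustment over the 3 added contrasts. As the pairs were chosen with the values known, these p-values are no independent test.

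**Figure D3:**
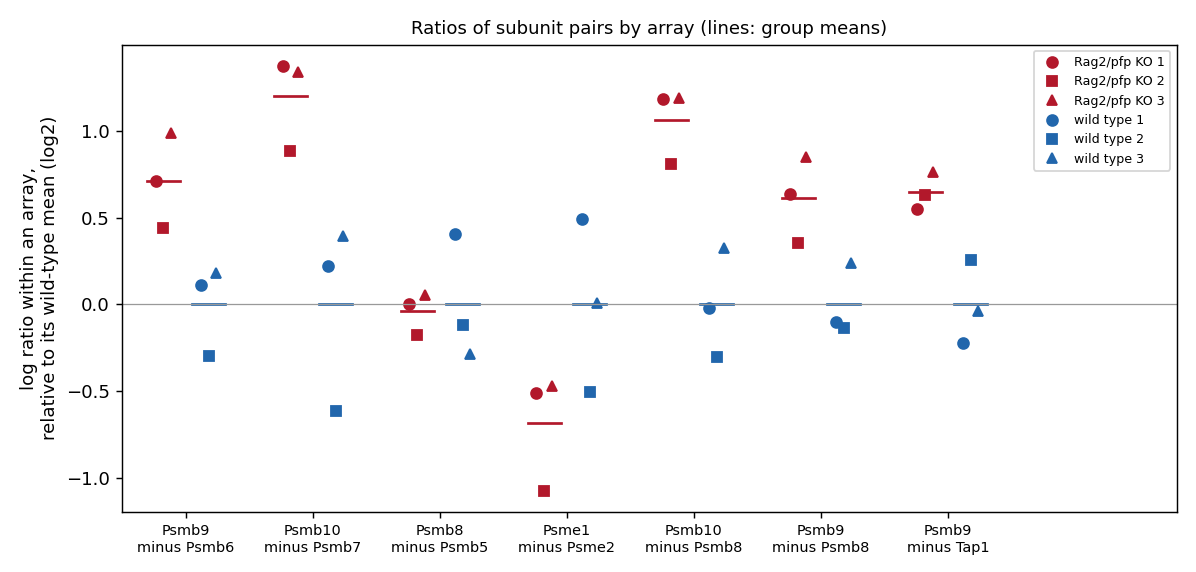
Log2 ratio of each pair of subunits and of Psmb9 to Tap1 on each array, relative to the wild-type mean of that pair, with knockout points left of wild-type points and a bar at each group mean. The knockout points lie above all wild-type points for Psmb9 over Psmb6 and Psmb10 over Psmb7, and within the wild-type range for Psmb8 over Psmb5.

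The PA28 activator is a ring of Psme1 (PA28alpha) and Psme2 (PA28beta) that docks on the core and opens it. The brighter Psme1 probe (ILMN_2986309) read 13.20, 13.24 and 13.41 in knockout thymus and 13.30, 13.17 and 13.20 in wild type, with a difference of 0.06 (SE 0.14). The other Psme1 probe had a difference of -0.10, so the probes of this gene pointed opposite ways and both overlapped between genotypes. The limma adjusted p-values of the Psme1 probes were 0.817 and 0.744. Psme2 (ILMN_2731057) read 6.74, 7.34 and 6.90 in knockout thymus and 5.83, 6.70 and 6.21 in wild type. The lowest knockout value of Psme2 lay just above the highest wild-type value, and replicate 2 was the highest array of each genotype. The difference was 0.74 (SE 0.28, 95% interval 0.07 to 1.42), with an unadjusted p of 0.0357 and a limma adjusted p of 0.147. The Psme2 probe was dim, with a detection p-value of up to 0.0213, and its signals were 239.1, 264.0 and 230.7 in the knockout and 177.4, 231.9 and 205.9 in wild type. Those signals overlapped, and without background correction the difference of Psme2 was 0.33.

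Other proteasome genes were read from fixed lists. Among the other subunits of the 20S core, 0 of 9 tested genes were called in either direction at the adjusted threshold by limma. At an unadjusted p under 0.05, 1 passed, beside 28.6% of all tested genes. Of the 9 differences, 8 were positive, beside 50.8% of all tested genes, with a median of 0.25. Psmb4, a beta subunit without an active site, had a difference of 0.54 (limma adjusted p = 0.121), and the alpha subunit Psma2 had 0.09. The 19S regulator recognises ubiquitin-tagged proteins and unfolds them. Of its 15 tested genes, 1 was called higher, beside 6.09% of all tested genes, and 0 lower, with a median of 0.08. That gene was Psmd1, a scaffold subunit of the regulator, which rose to 9.15, 9.15 and 9.41 in the knockout, against 8.62, 8.58 and 8.46 in wild type. Its difference was 0.68 (SE 0.15) with a limma adjusted p of 0.0405, and it was not called when any 1 of the 6 arrays was left out (adjusted p between 0.0534 and 0.178). The ATPase subunit Psmc2 had a difference of 0.57 (adjusted p = 0.0742) and the ubiquitin receptor Psmd4 one of 0.08. Of 10 assembly factors and other activators or inhibitors, 0 were called and 0 passed unadjusted, beside 28.6% of all tested genes that passed unadjusted. In this list Pomp, the chaperone that completes the core, had 0.06, and Nfe2l1, a transcription factor of proteasome genes, had 0.62 (adjusted p = 0.205).

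The genes that load peptides onto MHC class I were read beside the members. Of 8 tested genes, 0 were called and 0 passed unadjusted, beside 28.6% of all tested genes that passed unadjusted. Their median difference was 0.21. B2m, the light chain of class I, had a difference of 0.08, and Pdia3, a chaperone of the loading complex, had 0.19. Of 17 tested interferon-regulated genes, 1 was called higher, beside 6.09% of all tested genes, and 0 lower, with a median of 0.25. The differences of this list ran from -0.65 to 0.94, and 10 of 17 were positive, beside 50.8% of all tested genes. Irf1, a transcription factor that drives immunosubunit genes in cells given interferon-gamma, rose to 13.50, 13.36 and 13.66 in the knockout, against 12.85, 12.55 and 12.84 in wild type. Its difference was 0.76 (SE 0.17) with a limma adjusted p of 0.0385. The call on Irf1 held without knockout 2 (adjusted p = 0.0451) but not without any other array (adjusted p up to 0.143). Irf1 also lost its call under median centring (limma adjusted p = 0.0577) and with the mean of its probes (limma adjusted p = 0.189). The GTPase genes Gbp2 and Irgm1 had differences of 0.60 (adjusted p = 0.0968) and 0.24. Irgm1 was 0.12 without wild type 2 and 0.62 with the mean of its probes, and Gbp2 was 0.37 without replicate 2 of both genotypes.

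**Figure D4:**
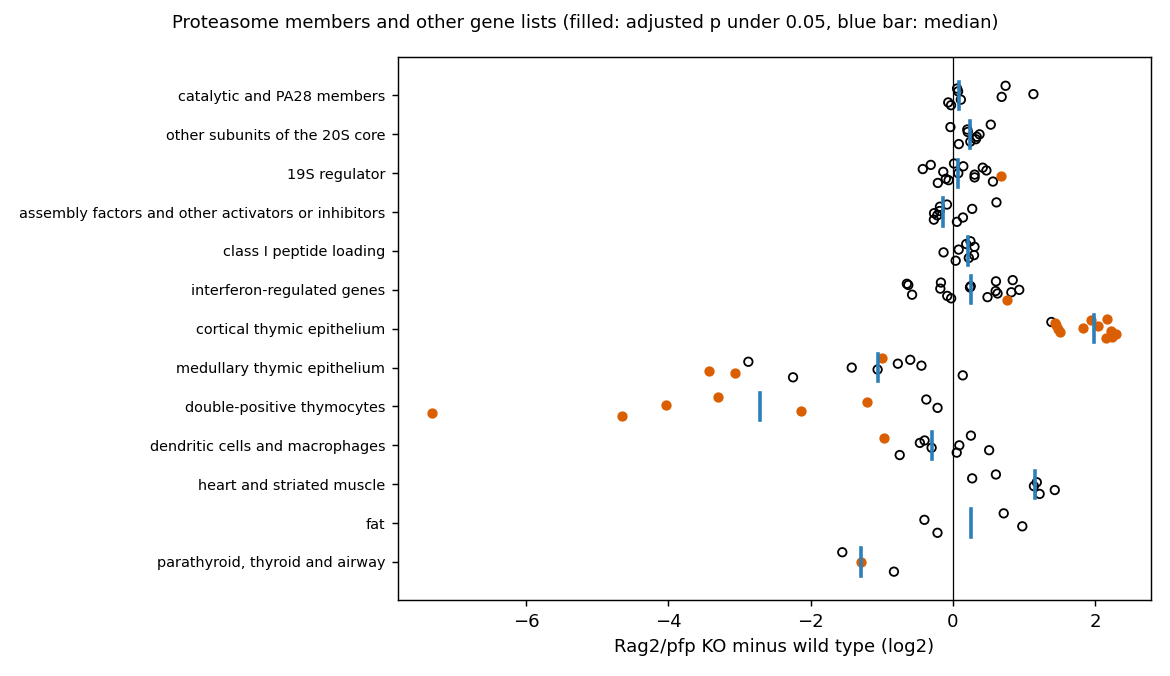
Differences between knockout and wild type on the log2 scale for the tested genes of each list, with a point per gene, filled where the gene was called, and a bar at the list median. The proteasome, class I and interferon lists lie near 0, with medians between -0.13 and 0.25, while the cortical epithelium list has a median of 1.99 and the double-positive thymocyte list one of -2.72.

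Markers of several cell types moved with genotype in the same arrays as the members. The marker lists were chosen with earlier results of these data known. Of 14 tested markers of cortical thymic epithelium, 13 were called higher, beside 6.09% of all tested genes, and 0 lower. The median difference of these markers was 1.99. Dll4, the Notch ligand of this epithelium, had a difference of 2.30 (limma adjusted p = 0.0041), and Ctsl, a protease of its antigen processing, had 2.25. The median level of this list was 12.36, 11.73 and 12.42 in the knockout and 10.36, 9.28 and 10.42 in wild type, so replicate 2 was the lowest of each genotype here as in Psmb10 and Psmb9. The same held for the medians of the double-positive, medullary, class I loading and dendritic and macrophage lists. It also held for the medians of the other 20S core subunits, the assembly factor list, and the parathyroid, thyroid and airway list. The count of called cortical markers was 1 with knockout 1 left out, 6 with knockout 3 left out, 3 with wild type 1 left out and 2 with wild type 3 left out.

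Double-positive thymocytes are the T cell precursors that carry both CD4 and CD8. Of 8 tested markers of these cells, 6 were called lower, beside 5.57% of all tested genes, and 0 higher. Cd8b1, a chain of the CD8 co-receptor, had a difference of -7.32 (limma adjusted p = 0.00141), and Cd28, a co-stimulatory receptor, had -4.03. Cd3e and Arpp21, which were not called, had -0.21 and -0.37. Of 11 medullary epithelium markers, 3 were called lower, beside 5.57% of all tested genes. Among those called were the chemokine gene Ccl21a at -3.43 and the keratin gene Krt14 at -3.06. The brightest medullary markers not called were Krt5, which went the other way at 0.14, and Cldn4 at -0.44. Leaving out knockout 1, wild type 1 or wild type 3 gave a medullary count of 0, and leaving out wild type 2 gave 7. Of 9 tested markers of dendritic cells and macrophages, 1 was called lower, beside 5.57% of all tested genes, and 0 higher. The called marker was the lysozyme gene Lyz2 at -0.97 (limma adjusted p = 0.0413). Differences in this list ran from -0.97 to 0.51, and 4 of the 9 were positive. Lyz2 was called in 1 of 6 fits with an array left out, the one without wild type 2. The dendritic markers Itgax, Flt3, Xcr1 and Clec9a did not pass the detection filter. In bulk thymus, fewer cells of a type and less RNA per cell cannot be told apart, and the part of any of these cell types in the levels of Psmb10, Psmb9 and Psme2 was not tested. The part of heart and fat transcripts in those levels was not tested either, and the heart level was used only as a covariate for the genotype difference. With the heart level as a covariate, added after the data were examined, Psmb10 and Psmb9 were called at differences of 1.22 and 0.76, and Psme2 was not (limma adjusted p = 0.0602). That fit called 1278 of all tested genes higher, against 600 without the covariate. With replicate 2 of both genotypes left out, Psmb10, Psmb9 and Psme2 were called at 1.06, 0.70 and 0.80 (limma adjusted p = 0.00817, 0.0328 and 0.0382), in a fit that called 1500 genes higher. Knockout 1, where the heart median was 10.80, stayed in that fit.

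**Figure D5:**
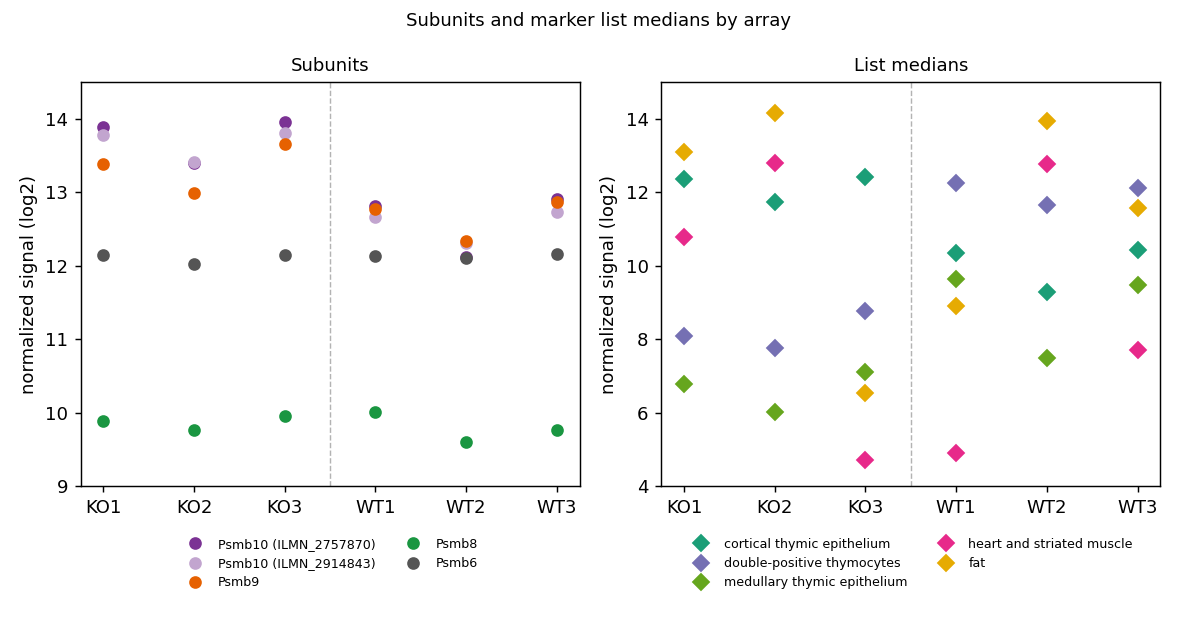
Levels on each array, as normalized log2 intensity, of Psmb10 (both probes), Psmb9, Psmb8 and Psmb6 on the left and the medians of the cortical epithelium, double-positive thymocyte, medullary epithelium, heart and fat lists on the right, with knockout arrays left of wild-type arrays. The cortical median lies between 11.73 and 12.42 in the knockout and between 9.28 and 10.42 in wild type, while the heart median is highest in replicate 2 of each genotype.

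Psmb9 and Psmb8 lie in the MHC class II region with the peptide transporter genes Tap1 and Tap2 between and beside them, and the RefSeq order is H2-DMa, H2-DMb2, H2-DMb1, Psmb9, Tap1, Psmb8, Tap2, H2-Ob, H2-Ab1. Along this order the difference was 0.79 for H2-DMa and 0.60 for H2-DMb1, genes of the class II peptide exchange factor. It was 0.47 for H2-DMb2 between them, then 0.69 for Psmb9. None of these genes was called (limma adjusted p = 0.112 for H2-DMa, 0.170 for H2-DMb1, 0.442 for H2-DMb2 and 0.127 for Psmb9). The difference was 0.04 for Tap1 (SE 0.30, limma adjusted p = 0.943), 0.08 for Psmb8 and 0.23 for Tap2. H2-Ob, a gene of the inhibitor of that exchange factor, fell by 1.96 (adjusted p = 0.0314, and up to 0.126 with 1 array left out). The class II chain gene H2-Ab1 had a difference of 0.71 and was not called (limma adjusted p = 0.108). Tap1 shares its upstream bases with Psmb9, as printed above, but did not separate the genotypes as Psmb9 did. Psmb9 over Tap1, a ratio chosen after the data were examined, was 0.55, 0.63 and 0.76 in the knockout and -0.22, 0.26 and -0.04 in wild type. The arrays did not overlap and the ratio was 1.57-fold higher in the knockout (exact permutation p = 0.1). For a ratio chosen this way, that p-value is no independent test. Among the neighbours of Psmb10, the differences were 0.26 for Pskh1, 0.05 for Ctrl, -0.07 for Lcat and 0.16 for Slc12a4, and none of these 4 was called. Beside Psmb6, Vmo1 and Tm4sf5, named after their values were seen, fell by 2.57 and 1.93 (limma adjusted p = 0.0251 and 0.0434), and both kept the call with wild type 2 left out but not with any other array left out (adjusted p up to 0.104 and 0.158). Psme1 and Psme2 lie on either side of Emc9, and Psmb5 lies next to Psmb11.

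The genes whose profile over the 6 arrays was most like that of a member were found by the root mean square distance between centred log2 levels. For Psmb8, the rule fixed for it gave Foxj2 at 0.0399, Phc2 at 0.0416, AI597479 at 0.0468, Olfr702 at 0.0497 and Srfbp1 at 0.0505. Profiles for Psmb9 and Psmb10 were added after the data were examined. For Psmb9 they were Pced1a at 0.0318, Trp53i13 at 0.0578, Osm at 0.0627, Slc11a2 at 0.0683 and its neighbour H2-DMb1 at 0.0687. For Psmb10 they were Fam83f at 0.0571, Plekhb1 at 0.0609, Lpcat2 at 0.0850, Denn2b at 0.0857 and Bahd1 at 0.101. Members of the proteasome were not among these. With only 5 of 9849 tested genes taken for each profile, that says little of whether the members varied together. The profile planned for Psmb11 could not be computed.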

How the data were processed

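Thymus RNA of 3 Rag2/pfp KO and 3 wild-type samples was measured on single-colour arrays, and groups were taken from sample titles. The deposited probe intensities are linear and, per the file headers, not normalized between arrays. Each has a detection p-value that the authors deposited with it. The submitters' processing notes name GenomeStudio 2011.1. The authors also deposited log2 values, whose median was 7.48 on every array; they matched quantile-normalized log2 signals within 5.0e-07, so their scale is known, they are not centred, and higher means brighter.

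Intensities were normalized with neqc in limma 3.58.1 (R 4.3.3), with an offset of 16 and background estimated through the detection p-values. Probes with detection p under 0.05 on at least 3 of 6 arrays were tested with lmFit and eBayes, without a block, and p-values were Benjamini-Hochberg adjusted over 14097 probes. Each difference is knockout minus wild type. Of 16593 genes, 9849 had a tested probe, and the one of highest mean stood for the gene. Of 25697 probes, 23978 had 1 symbol and 1719 none, and 23962 matched the RefSeq table by gene ID. Pair ratios were tested by exact permutation. Figures were made with Python 3.11.15 and matplotlib 3.10.9. The procedure was tested on simulated data.

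The members and the 12 gene lists were chosen with earlier results of these data known. Named were all members, per list some of the called genes of largest change and of the brightest not called, and the 5 most alike profiles. The genes of the class II region, the neighbours of Psmb10 and the dendritic markers below detection were named by position or list. Alternatives covered normalization, background, filter, block, moderation, weights, probe choice and each array left out. No sample column was left unmapped. Chips could not be used as blocks, since the headers do not name them.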

Additional observations from a re-analysis of the deposited data

How the results depend on the processing

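The number of member genes called higher was 0 and became 1 (Psmb10) without background correction, with an offset of 50, with the authors' log2 values, with detection p under 0.01 on all arrays, with a mean-variance trend and with the mean of a gene's probes. It was 2 with the heart level as a covariate (Psmb10 and Psmb9) and 3 with the replicate block, with array weights and without replicate 2 of both genotypes, the last and the heart covariate being added after the data were examined. Median centring and no detection filter left it at 0, and leaving out 1 array gave 0 to 1. The cause was not tested. No setting called a member lower.

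Psmb10 was 1.12 without background correction or with the authors' values (limma adjusted p = 0.0443), 1.13 with offset 50 and 1.14 at the strict filter or with the trend. It was 1.12 with the mean of probes, 1.01 with array weights, 1.22 with the heart covariate (adjusted p = 0.00602) and 1.06 without replicate 2, and 0.89 to 1.31 with 1 array left out. Psmb9 was 0.55 with array weights, 0.76 with the heart covariate (adjusted p = 0.0140) and 0.70 without replicate 2, and 0.53 to 0.87 with 1 array left out. Psme2 was 0.57 with array weights, 0.80 without replicate 2 and 0.53 to 0.97 with 1 array left out, and it had no value at the strict filter. The array weights fit did not reach its convergence tolerance. The second Psmb10 probe ranged over 0.97 to 1.23 with 1 array left out. The pair ratios cannot pass the threshold in a design of 3 against 3, so their p-values say nothing of stability. Psmb8 over Psmb5 ran from -0.18 to 0.16 with 1 array left out and turned sign without knockout 2 and without wild type 1. Psme1 over Psme2 was -0.27 without background correction.

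The correlation of deviations between samples of the same replicate number was 0.09, 0.76 and 0.57. Between knockout 3 and wild type 1, which differ in number, it was 0.74. These values do not settle whether the number pairs the samples. With the replicate block Psmb10 was 1.14 (adjusted p = 0.00959), Psmb9 0.69 (0.0238) and Psme2 0.74 (0.0227), 1223 genes were called higher and 1163 lower, against 600 and 549, and lists gained calls (higher: 20S core 1, 19S regulator 2; lower: medullary epithelium 7).

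Signs turned for members whose difference was small. Psmb6 was 0.000575 under median centring, 0.0045 without replicate 2 and -0.0463 to 0.0197 with 1 array left out. Psmb7 was 0.0139 without replicate 2 and -0.113 to -0.0035 with 1 array left out. Psmb5 was -0.0985 with array weights and 0.0225 to 0.242 with 1 array left out, and Psmb8 ranged from -0.0198 to 0.186 with 1 array left out. Psme1 was -0.0045 with array weights and -0.0175 as a mean of probes, and 0.000507 to 0.102 with 1 array left out. With array weights Psma2 (-0.0018), Pomp (-0.0035), B2m (-0.0917), Tap1 (-0.0583), Tap2 (-0.0351) and Foxj2 (-0.00042) turned. Without replicate 2, B2m (-0.0747), Tap1 (-0.0788) and Foxj2 (-0.0389) turned. With 1 array left out Pomp ranged from -0.0152 to 0.16, B2m from -0.0215 to 0.145, Tap1 from -0.25 to 0.213, Foxj2 from -0.0621 to 0.129, Olfr702 from -0.0284 to 0.133 and Srfbp1 from -0.0469 to 0.094.

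Over all genes, array weights called 3668 higher and 3723 lower, the heart covariate 1278 and 1145, leaving out replicate 2 1500 and 1375, and leaving out 1 array 66 to 732 and 85 to 774. Array weights called higher 6 genes of the 20S core, 7 of the 19S regulator, 3 of the assembly factors, 3 of class I loading, 6 interferon-regulated, 1 dendritic or macrophage, 6 heart and 2 fat. They called lower 4 of the 19S regulator, 4 of the assembly factors, 1 of class I loading, 7 interferon-regulated, 10 medullary, 5 dendritic or macrophage and 3 of the parathyroid, thyroid and airway list, which had 1 in the fit reported. The heart covariate called higher 1 of the 20S core, 3 of the 19S regulator, 1 assembly factor and 1 fat gene, and lower 6 medullary. The 19S count was 2 without background correction, with the authors' values and with the trend, and 0 under median centring. The interferon count was 0 under median centring and with the mean of probes, and class I loading gained 1 with that mean. The dendritic and macrophage count was 0 under median centring, with no filter and with the mean of probes, and the airway list fell to 0 at the strict filter. Without replicate 2, higher calls were 1 (20S core), 3 (19S), 2 (interferon) and 1 (dendritic), and lower calls 1 (19S), 4 (interferon), 7 (medullary) and 4 (dendritic). With 1 array left out the counts ran from 1 to 14 for cortical markers, 0 to 7 for medullary, 0 to 3 for dendritic, 0 to 1 for interferon in each direction and for the airway list, and were 0 for higher 19S calls.

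Having 3 arrays a genotype limits what these data resolve, and the signal of Psme2 lay close to background.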
